A study of Mus musculus with 3 samples.

Results

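The 38 Hox genes examined here lie in 4 clusters, 10 in Hoxa on chromosome 6, 10 in Hoxb on chromosome 11, 9 in Hoxc on chromosome 15 and 9 in Hoxd on chromosome 2. Accessible chromatin around them was described from ATAC-seq peak lists of mouse embryonic stem cells. A peak was counted as a Hox peak when its midpoint lay inside a Hox gene body or within 5 kb of one, by the RefSeq gene table of GRCm38. By that rule 90 of 88898 Halo-Sox2 peaks were Hox peaks, as were 74 of 83995 Halo-Sox2a peaks and 77 of 72638 peaks of the control (Ctrl). Merging peaks that overlapped between lists gave 107 Hox regions of 130664 regions in all.

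The study asked how the electrostatics of disordered protein segments shape the way a transcription factor finds its sites and opens chromatin. All 3 lines derived from CGR8, a feeder-independent mouse embryonic stem cell line, and were grown with serum, LIF and the inhibitors CHIR99021 and PD184352. Line SES4.1 carried a doxycycline-inducible transgene for Halo-Sox2, the pluripotency factor Sox2 joined to the self-labelling Halo tag, and received 300 ng/mL doxycycline for 20 h. Line SES5.1 carried an inducible Halo-Sox2a, which the labels do not describe further, and received 70 ng/mL for 20 h. Both were stained with 50 nM of a Halo dye and sorted through the same fluorescence gate. Line SES11 (Ctrl) had no inducible transgene, and its labels give neither a doxycycline dose nor a sort. The transgenic groups thus differed in the factor, the line and the dose together, and the control differed from both in transgene, line and possibly in handling, which cannot be told apart. Each group was 1 library, so differences have no replicate error and no p-value is given. The Wilson 95% intervals below cover counting error only, and sequencing depth is unknown.

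Hox genes encode homeodomain transcription factors that give cells their position along the head-to-tail axis of the embryo. Within each cluster the genes are ordered so that low-numbered genes are used early and towards the head, and high-numbered genes late and towards the tail and limb tips. In embryonic stem cells the clusters are known as large domains of Polycomb repression, with CpG-rich promoters that carry repressive and activating histone marks together and are opened stepwise on differentiation, for example by retinoic acid. Accessibility at a promoter is therefore not a measure of transcription, and no RNA was measured here.

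The promoter sequences below show the range of sequence behind the peak patterns, with 1 promoter each for a peak over the window in all 3 lists, with Halo-Sox2 only, with Halo-Sox2a only and in none, and a pair for the control-only pattern. Promoters with a peak in exactly 2 lists are not printed. Hoxd1 held a peak in all 3 lists, Hoxb1 and Hoxa2 in the control list only, Hoxa3 with Halo-Sox2 only, Hoxd8 with Halo-Sox2a only and Hoxd4 in none. Each is the 250 bases before the transcription start, 5′ to 3′ on the gene's strand, from RefSeq on GRCm38.p6. Capitals mark exact matches, on either strand, to the SOX cores CATTGT and CTTTGT, the octamer ATGCAAAT recognised by Oct4, and the HOX-PBX motif TGATNNAT.
Hoxd1 (chr2:74762730-74762979, plus strand): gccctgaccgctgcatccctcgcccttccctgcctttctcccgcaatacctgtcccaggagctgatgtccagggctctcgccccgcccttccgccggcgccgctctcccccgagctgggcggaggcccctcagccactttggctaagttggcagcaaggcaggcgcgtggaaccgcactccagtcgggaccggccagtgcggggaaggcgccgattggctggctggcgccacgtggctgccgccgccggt
Hoxb1 (chr11:96365508-96365757, plus strand): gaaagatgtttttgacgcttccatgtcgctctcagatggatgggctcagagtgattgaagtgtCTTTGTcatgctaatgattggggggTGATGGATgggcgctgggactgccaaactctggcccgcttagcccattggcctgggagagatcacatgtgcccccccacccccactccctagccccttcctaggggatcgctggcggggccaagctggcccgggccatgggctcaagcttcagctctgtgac
Hoxa2 (chr6:52164832-52165081, minus strand): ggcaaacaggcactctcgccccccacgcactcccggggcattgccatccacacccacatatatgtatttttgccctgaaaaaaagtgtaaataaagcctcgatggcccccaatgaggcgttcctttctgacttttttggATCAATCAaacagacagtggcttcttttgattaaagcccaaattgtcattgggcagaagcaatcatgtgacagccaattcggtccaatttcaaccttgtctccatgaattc
Hoxa3 (chr6:52213068-52213317, minus strand): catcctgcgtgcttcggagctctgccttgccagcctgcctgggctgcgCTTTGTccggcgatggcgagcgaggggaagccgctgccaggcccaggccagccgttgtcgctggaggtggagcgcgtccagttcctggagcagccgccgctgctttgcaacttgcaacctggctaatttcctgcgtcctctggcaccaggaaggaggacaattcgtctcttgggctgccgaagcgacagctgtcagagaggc
Hoxd8 (chr2:74704365-74704614, plus strand): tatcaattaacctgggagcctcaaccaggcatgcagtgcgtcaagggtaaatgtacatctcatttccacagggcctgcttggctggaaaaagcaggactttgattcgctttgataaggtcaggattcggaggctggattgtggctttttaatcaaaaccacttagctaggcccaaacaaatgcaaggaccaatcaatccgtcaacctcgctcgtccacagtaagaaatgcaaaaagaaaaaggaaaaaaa
Hoxd4 (chr2:74721728-74721977, plus strand): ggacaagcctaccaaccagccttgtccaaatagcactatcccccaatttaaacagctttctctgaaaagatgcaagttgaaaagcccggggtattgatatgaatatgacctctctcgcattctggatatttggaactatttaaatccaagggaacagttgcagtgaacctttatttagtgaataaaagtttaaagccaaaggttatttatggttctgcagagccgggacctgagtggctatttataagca
Hoxb1 carried a CTTTGT match starting 187 bases before the start and a TGATNNAT match starting 162 bases before it. Hoxa2 carried a TGATNNAT match and Hoxa3 a CTTTGT match, while no capital falls in the printed bases of Hoxd1, Hoxd8 or Hoxd4.

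The RefSeq promoter table, with windows of 300 bases (250 before the start and 50 after), held 22 of the 38 genes in 24 windows. CTTTGT matched in 6 of the 24 Hox windows (25.0%) against 18.7% of all 32851 windows of that length, and CATTGT in 0 against 12.6%. TGATNNAT matched in 4 (16.7%) against 8.85%, and the octamer in 0 against 1.74%. The nuclear receptor core AGGTCA matched in 7 (29.2%) against 16.3%, and AGGGGGC, the core of the motif of the insulator protein CTCF, in 2 (8.33%) against 10.6%. CATTGT and CTTTGT share the ending TTGT, a base may fall in more than 1 match, and a match describes the letters alone. The Hox windows had a median GC content of 57.7% and a median of 14.5 CpG dinucleotides, against 56.3% and 13 over protein-coding promoters. Hoxa10 and Hoxd11 have 2 windows each, so the windows were classed one by one. The 7 windows with a peak in all 3 lists had a median GC of 62.7% and 22 CpGs, the 10 with a peak in 1 or 2 lists 56.1% and 13, and the 7 without a peak 55.0% and 13. The ranges overlapped, from 54.0% to 74.3% GC in the first set, from 45.7% to 81.0% in the second and from 39.7% to 62.0% in the last. The Hoxd4 window had the lowest GC content, 39.7% with 4 CpGs, and the Hoxd1 window had 69.7% with 29.

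Peaks were dense across the clusters and low in score. The 107 regions came to 2.41 per 10 kb of the 445 kb searched, against 0.631 per 10 kb in the 200 kb on each side of the clusters. The searched sequence is gene bodies with 5 kb around them, while the flanks were counted whole, with or without genes. These densities are therefore not like for like. By cluster there were 30 regions in Hoxa, 26 in Hoxb, 27 in Hoxc and 24 in Hoxd, or between 2.21 and 2.85 per 10 kb. Of them, 74 had a midpoint inside a Hox body, and the gene table does not divide bodies into exons, introns and UTRs. The longest stretch without a region was 46.7 kb between Hoxb13 and Hoxb9, while in Hoxa, Hoxc and Hoxd it was 9.63, 10.9 and 8.36 kb. The window rule itself left out 5 regions inside the span of Hoxb, all between Hoxb13 and Hoxb9, and at most 1 inside the span of any other cluster.

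**Figure D1:**
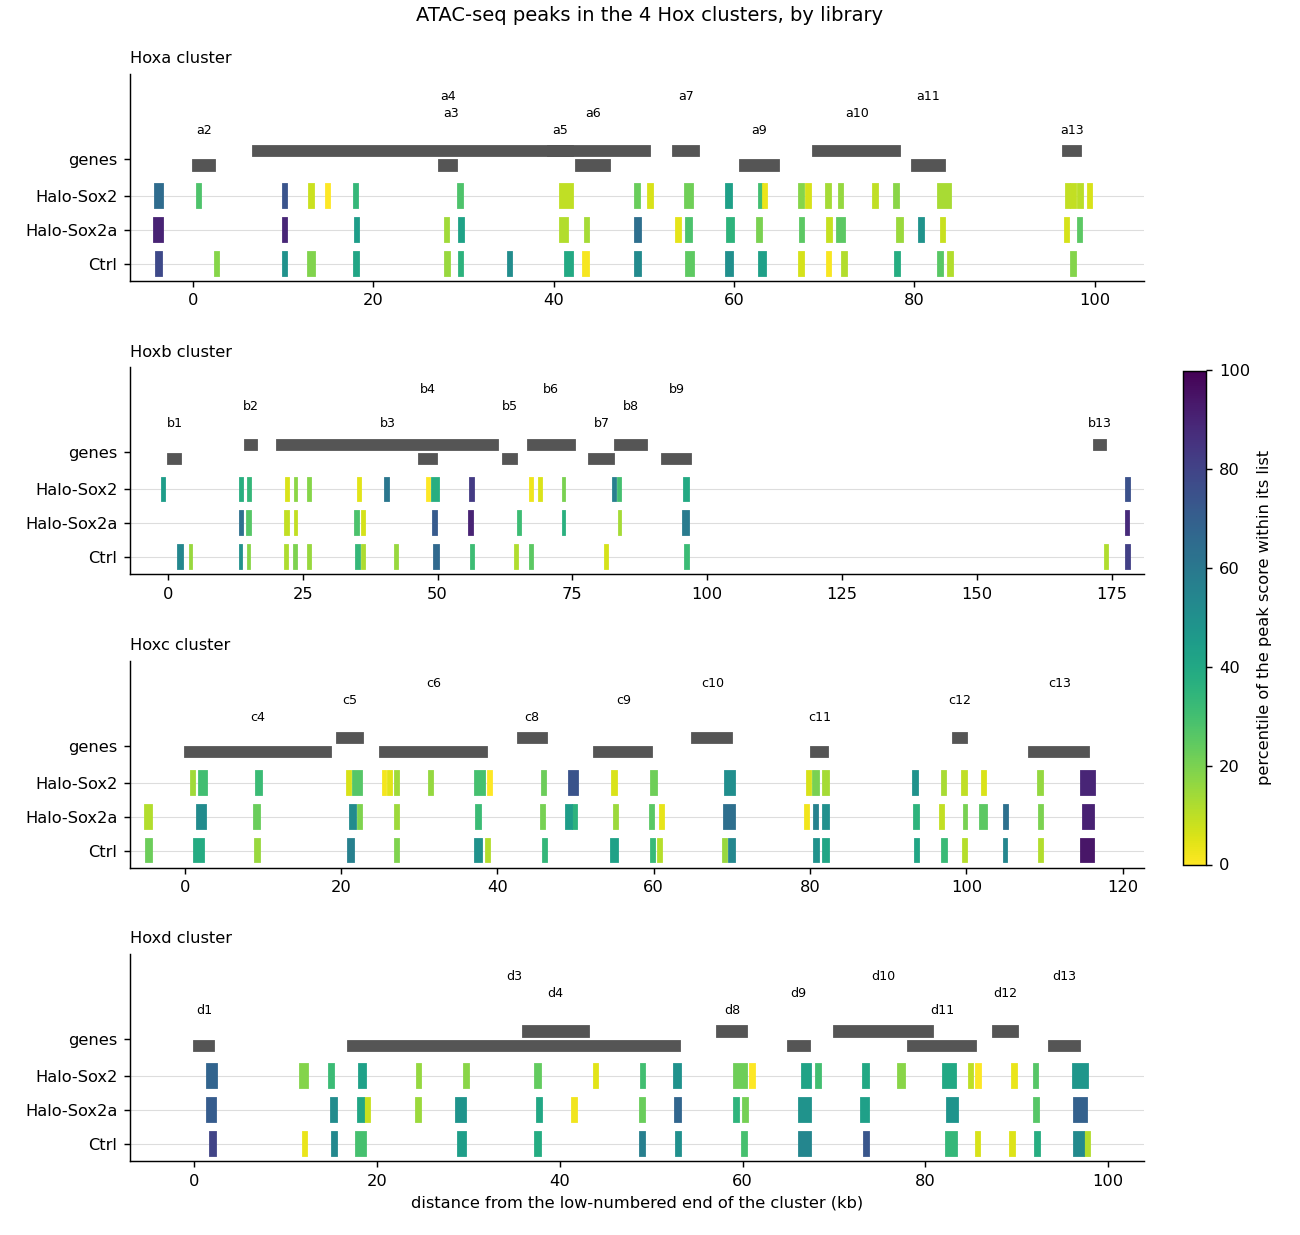
Peaks of the 3 libraries along each Hox cluster, drawn from the low-numbered end (left, distance in kb) with gene bodies as grey bars, 1 row of peaks per library, and colour for the percentile of the authors' score within that library's list (0 lowest, 100 highest). Most peaks are yellow to green, below percentile 50, and the few dark ones include the peak at Hoxc13 on the right of the Hoxc map.

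The score in the deposited lists is the authors' own value for each peak, on a scale they do not state, so it was turned into a percentile, the share of peaks of the same list with a lower score (ties shared). The median Hox peak stood at percentile 18.5 (Halo-Sox2), 28.2 (Halo-Sox2a) and 32.1 (Ctrl), where all peaks stand at 50 by construction. Below percentile 25 there were 54 of the 90 Halo-Sox2 peaks (60.0%), 29 of the 74 Halo-Sox2a peaks (39.2%) and 32 of the 77 control peaks (41.6%). Above percentile 75 there were 3, 5 and 4. The lists differ in length, so these percentiles stand side by side and no change is read from them.

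The low position was also seen among regions that all 3 libraries held. The 52 Hox regions of this kind had median percentiles of 28.7 (Halo-Sox2), 38 (Halo-Sox2a) and 39.2 (Ctrl), against 61.5, 72.3 and 67.9 for the 41984 regions of this kind genome-wide. They were of ordinary width, with a median of 863 bp against 843 bp. Regions held by all 3 lists in the flanks of the clusters stood at 56.5, 58.0 and 55.3. Those near 40 homeobox genes outside the clusters, such as the Dlx, Lhx and Otx genes, stood at 46.5, 55.7 and 57.5, and those over protein-coding promoters at 76.8, 83.1 and 82.6. Across the 52 shared Hox regions the percentiles ran together, with a Spearman rho of 0.771 between the transgenic lists, 0.676 between Halo-Sox2a and control and 0.59 between Halo-Sox2 and control. Over all shared regions the same values were 0.714, 0.739 and 0.577. These describe regions within single libraries, which are not independent replicates.

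**Figure D2:**
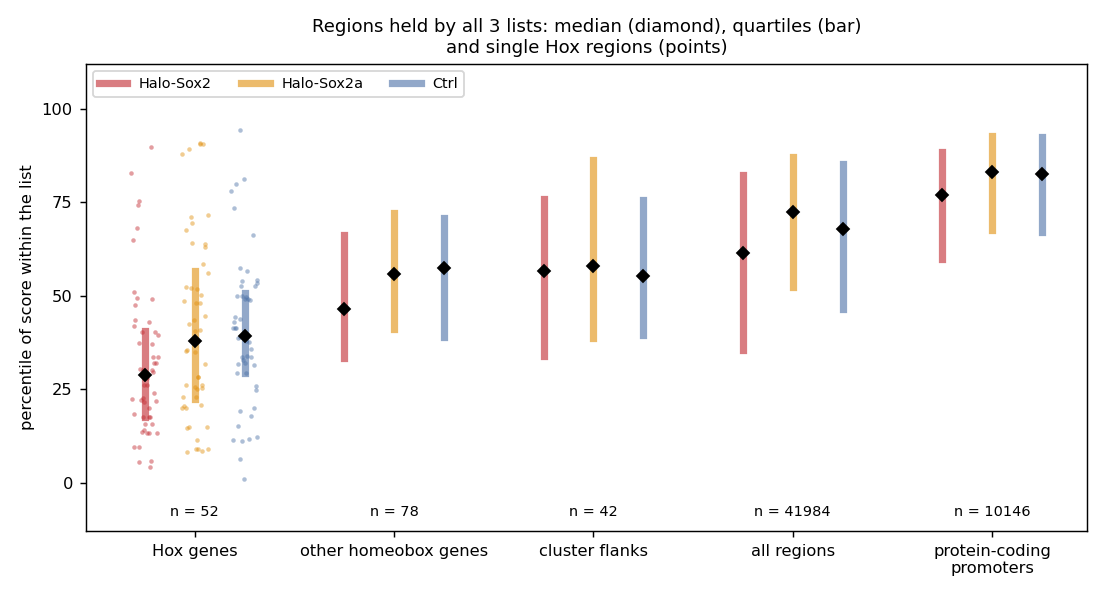
Percentile of the score within its list (vertical axis, 0 to 100) for regions held by all 3 lists, with the median (diamond) and quartiles (bar) of each set and, for the Hox genes, every region as a point. The Hox medians of 28.7, 38 and 39.2 lie below those of the flanks, of other homeobox genes and of protein-coding promoters in each library.

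At the level of 5′ ends, 24 of the 38 genes had a peak within 1 kb of a start in all 3 lists, 6 had none in any list and 8 differed between lists. A peak was present at 28 genes (Halo-Sox2), 27 (Halo-Sox2a) and 29 (Ctrl). For the 22 genes with an annotated start the count in all 3 lists was 15, against 62.7% of 17492 protein-coding genes of the same table. For the other 16 genes the start is the end of the gene body, which can be the start of a rare long form. Over the narrower 300-base windows (gene ends within 1 kb for those 16 genes) a peak was present at 25, 24 and 25 genes, at 17 in all 3 lists and at 7 in none. Of the 22 genes with an annotated start, 7 had such a peak in all 3 lists, against 58.9% of protein-coding genes.

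The 5′ peaks were low for promoters. The highest peak within 1 kb of each Hox 5′ end had a median percentile of 27.1 over 28 genes (Halo-Sox2), 43.6 over 27 (Halo-Sox2a) and 38 over 29 (Ctrl), against 77, 83.1 and 82.5 for protein-coding genes with a peak. Below that protein-coding median were 27 of 28, 26 of 27 and 28 of 29 genes. The exception in each list was Hoxc13, which acts in hair and nail formation. Promoter peaks of the 40 other homeobox genes, taken by the narrower windows above, had median percentiles of 61.0, 65.7 and 64.7. A height below the protein-coding median was therefore not particular to Hox genes.

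**Figure D3:**
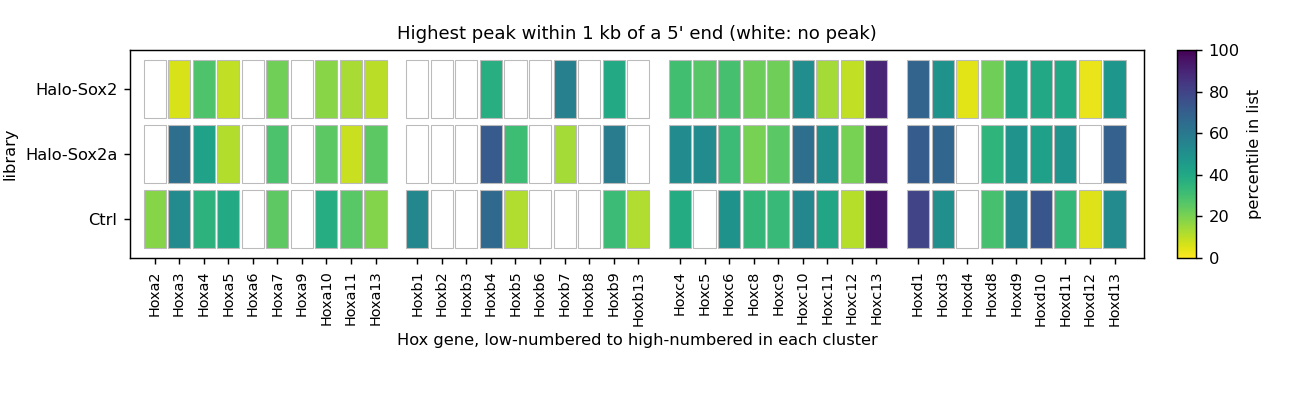
Percentile within its list (colour) of the highest peak within 1 kb of the 5′ end of each of the 38 Hox genes (columns, low-numbered to high-numbered in each cluster) in the 3 libraries (rows), with white for no peak. The Hoxb block holds most of the white cells, and the Hoxc13 column is dark in all 3 rows.

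The clusters differed in how complete this coverage was. A 5′ peak in all 3 lists, within 1 kb, was found at 7 of 10 Hoxa genes, 2 of 10 Hoxb genes, 8 of 9 Hoxc genes and 7 of 9 Hoxd genes. Over the 300-base windows (gene ends within 1 kb for genes without one) the counts were 1 of 10, 2 of 10, 8 of 9 and 6 of 9. Hoxa was then lower than Hoxb, so the place of Hoxa depended on the measure. All Hoxd genes, and all Hoxa genes but Hoxa4, were scored by the 300-base window, and most Hoxb and Hoxc genes by gene ends. The genes counted in Hoxa (Hoxa4) and Hoxb (Hoxb2 and Hoxb9) were all scored by gene ends. These counts are therefore not like for like between clusters. Of the 6 genes without a 5′ peak in any list, 4 were in Hoxb (Hoxb2, Hoxb3, Hoxb6 and Hoxb8) and the others were Hoxa6 and Hoxa9. The starts of Hoxb2, Hoxb3 and Hoxb6 were taken from body ends. Hoxb4 and Hoxb9 were the only Hoxb genes with a 5′ peak in all 3 lists.

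By position along the axis, a 5′ peak in all 3 lists was found at 3 of 7 genes of paralogue groups 1 to 3 (anterior), 8 of 15 genes of groups 4 to 8 (central) and 13 of 16 genes of groups 9 to 13 (posterior). Regions assigned to posterior genes had median percentiles of 15.8, 25.5 and 33.5 (Halo-Sox2, Halo-Sox2a and Ctrl), those of central genes 22.5, 31.5 and 33.9, and those of anterior genes 30.0, 40.9 and 24.6. Pooled over the clusters, the anterior regions were thus the highest in both transgenic lists and the lowest in the control list, a difference with no error behind it. No single cluster had this order. In Hoxa the anterior regions were also the highest in the control list (41.3, against 37.7 central and 18.5 posterior). In Hoxb the anterior Halo-Sox2a regions were the lowest (17.6, against 36.7 and 73.3). In Hoxd the posterior regions were higher than the anterior ones with Halo-Sox2 (28.2 against 25.3) and Halo-Sox2a (48.1 against 44.5). With each list cut to its 72638 highest peaks, the number of posterior genes with a 5′ peak in all 3 lists was 8 of 16, of central genes 7 of 15 and of anterior genes 2 of 7.

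Among the anterior genes, Hoxd1, which acts in pain-sensing neurons, had the highest 5′ peak. It lay at chr2:74762650-74763688, over the start, at percentiles 68.0 (Halo-Sox2), 71.1 (Halo-Sox2a) and 79.8 (Ctrl), with authors' scores of 256, 185 and 189. Hoxb1, which sets the identity of a single hindbrain segment and is known for an autoregulatory HOX-PBX element, had a peak over its start in the control list only, at chr11:96365366-96366296 and percentile 53.7. The Halo-Sox2 list held a peak 833 bp beyond the 3′ end of the Hoxb1 body, at percentile 44.7, which neither other list had. Hoxa2, which patterns the second branchial arch, had a low control peak before its start (chr6:52164868-52165317, percentile 18.2) and a Halo-Sox2 peak in its body (percentile 28.0). Neither was shared with another list.

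The paralogue-group-3 genes Hoxa3, Hoxb3 and Hoxd3, which act in the neck, thymus and hindbrain, have long bodies that run across neighbouring genes, so a region inside them cannot be assigned to them alone. Within 1 kb of the start, Hoxd3 had peaks at percentiles 49.2, 67.5 and 50.0 and Hoxa3 at 5.99, 64.0 and 52.7. Both held a peak in all 3 lists. Over the Hoxa3 start itself the Halo-Sox2 list alone had a peak, a narrow one of 217 bp at chr6:52213018-52213234, and the region that the other lists shared lay 936 bp inside the gene. The Halo-Sox2 list held that region too, at percentile 22.7, with its peak more than 1 kb from the start.

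Some regions inside these long bodies had higher percentiles in both transgenic lists than in the control list. A lower one, chr2:74746300-74747411 inside the Hoxd3 body, stood at 43.0 (Halo-Sox2), 40.9 (Halo-Sox2a) and 29.3 (Ctrl). A further pair stood higher. The region chr11:96311501-96312333, inside the Hoxb3 body and between Hoxb5 and Hoxb4, stood at percentiles 82.7 (Halo-Sox2), 90.6 (Halo-Sox2a) and 31.5 (Ctrl), with authors' scores of 414, 392 and 51. It was the highest Hoxb region of both transgenic lists. The region chr6:52172389-52172835, inside the Hoxa3 body, stood at 74.2, 89.2 and 49.2, with scores of 312, 364 and 82. It was the highest Hoxa region of the Halo-Sox2 list. Both were held by all 3 lists, and percentiles from single lists of unequal length show no change by themselves. The highest Hoxa region of the other lists lay 3810 bp beyond Hoxa2 on the low-numbered side, at 64.9, 90.5 and 77.9.

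Of the central genes, Hoxb4, known for its effect on blood stem cells, had the widest Hoxb region over its start (chr11:96317952-96319275, 1324 bp) at percentiles 37.4, 71.5 and 66.1. Hoxc4 had the widest region of any Hox gene, 1871 bp at chr15:103034035-103035905, at 30.3, 52.0 and 38.9. Hoxd4, a hindbrain and neck gene, had a 5′ peak in the Halo-Sox2 list alone, 720 bp before its start and at percentile 4.33. Hoxb5 had 5′ peaks with Halo-Sox2a (percentile 31.4) and in the control (11.9), in separate regions either side of the start. Hoxb7 had them with Halo-Sox2 (56.9) and Halo-Sox2a (13.6), and the Halo-Sox2 peak, at chr11:96285249-96285609 over the start, was not met by any other list. Hoxc5 had them in both transgenic lists (26.2 and 52.2). The control list held the same Hoxc5 region at percentile 56.7, with its peak more than 1 kb from the start, so this absence is one of position.

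Hoxc6 and Hoxc8, which act in the thoracic skeleton and spinal motor neurons, had 5′ peaks in all 3 lists, at percentiles 29.5, 31.7 and 49.2 for Hoxc6 and 22.5, 20.4 and 33.9 for Hoxc8. Hoxa7 had them at 21.7, 28.2 and 24.9, and Hoxd8 at 21.9, 34.9 and 29.3. Hoxa4 stood at 28.0, 42.4 and 35.8. Hoxa5, which is needed for the airway and lung, stood at 9.47, 11.5 and 39.6. None of these values reached percentile 50.

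Between Hoxc8 and Hoxc9 lay the highest region that both transgenic lists held and the control list lacked, chr15:102986590-102988067, at percentiles 74.5 (Halo-Sox2) and 44.7 (Halo-Sox2a). It was 1478 bp wide and 2885 bp from the Hoxc9 body. The highest region of the Halo-Sox2 list alone was chr11:96327270-96327904 inside the Hoxb3 body, at percentile 60.7. The highest of the Halo-Sox2a list alone was chr6:52243082-52243373 inside the Hoxa11 body, at 48.7. The highest of the control list alone was that over the Hoxb1 start. These 4 regions were picked with their values in view. No region above percentile 75 in a transgenic list lacked a control peak, and no control region above percentile 75 lacked a peak in either transgenic list.

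Of the posterior genes, Hoxc13 stood apart from all other Hox genes. The region over its start, chr15:102920410-102922226, was 1817 bp wide and stood at percentiles 89.8, 90.8 and 94.2, with authors' scores of 556, 397 and 351. It was the highest Hox region in each list. The paralogues of the same group were lower. Hoxd13, which with Hoxa13 forms the digits, had the widest Hoxd region over its start (chr2:74667291-74669005, 1715 bp) at 47.5, 69.5 and 52.7. Hoxa13 had 5′ peaks at 10.2, 25.3 and 18.5. Hoxb13, a gene of the tail and prostate, had a 5′ peak in the control list only, at percentile 11.9, while a region 3967 bp away on its far side from the cluster stood at 75.2, 88 and 81.1 (chr11:96189999-96190698).

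The group 10 genes, which hold back rib formation, and the group 11 genes, which shape the forearm, sacrum and kidney, had 5′ peaks in all 3 lists at every member. Hoxc10 stood at 51.1, 63.8 and 53.9, Hoxd10 at 40.2, 43.6 and 73.4, and Hoxa10 at 17.7, 25.1 and 38. Hoxd11 stood at 40.2, 48.1 and 33.5, Hoxc11 at 13.4, 50.2 and 41.3, and Hoxa11 at 13.2, 8.23 and 25.9. The Hoxa11 region (chr6:52245087-52246751) was the widest of its cluster at 1665 bp, and it stood at or below the median peak of the cluster (13.6, 25.2 and 25.9). That width comes from merging the lists. The peaks in it were 1364 bp (Halo-Sox2), 441 bp (Halo-Sox2a) and 285 and 593 bp (Ctrl) wide. In group 9, Hoxb9 stood at 39.6, 58.6 and 31.8, Hoxc9 at 22.1, 25.6 and 32.8, and Hoxd9 at 41.8, 48.5 and 54.2. Hoxa9, best known from blood progenitors and leukaemia, had no 5′ peak in any list and a body peak in all 3 at 30.2, 20.1 and 43.7. In group 12, Hoxc12 stood at 9.47, 20.7 and 11.1, and Hoxd12 had 5′ peaks at 3.18 (Halo-Sox2) and 5.24 (Ctrl).

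Across the 107 regions, 52 were held by all 3 lists, which is 48.6% (Wilson interval 39.3 to 58.0%) against 32.1% of all regions, 36.6% of regions within 5 kb of protein-coding genes, 41.6% of regions in the cluster flanks and 49.7% of regions near the other homeobox genes. With lists of equal size, or with peaks above percentile 25 alone, the share was 40.9% (31.2 to 51.4%) against 31.8%, or 39.7% (28.5 to 52.0%) against 33.1%, and both intervals include the share of all regions. Of the 52 regions, 25 (48.1%) lay within 1 kb of a Hox 5′ end, as did 45 (42.1%) of all 107 Hox regions. Regions held by all 3 lists numbered 14 in Hoxa, 9 in Hoxb, 16 in Hoxc and 13 in Hoxd.

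Halo-Sox2 against control was the first comparison. A Halo-Sox2 peak without a control peak was found in 27 of the 107 Hox regions, 25.2% (18 to 34.2%) against 33.3% of all regions. A control peak without a Halo-Sox2 peak was found in 14, 13.1% (7.96 to 20.8%) against 20.5%. By cluster the first count was 8, 7, 6 and 6 (Hoxa, Hoxb, Hoxc and Hoxd), and the second was 4, 7, 3 and 0. Both shares were below those of all regions, and both intervals include the background.

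For Halo-Sox2a against control, a Halo-Sox2a peak without a control peak was found in 13 regions, 12.1% (7.24 to 19.7%) against 21.2% of all regions. A control peak without a Halo-Sox2a peak was found in 16, 15% (9.42 to 22.9%) against 12.1%. Of the latter, 8 of 16 lay in Hoxb, among them the starts of Hoxb1 and Hoxb13. The other clusters had 4 (Hoxa), 1 (Hoxc) and 3 (Hoxd).

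Halo-Sox2 was set beside Halo-Sox2a directly as well. A Halo-Sox2 peak without a Halo-Sox2a peak was found in 28 regions, 26.2% (18.8 to 35.2%) against 26.2% of all regions. A Halo-Sox2a peak without a Halo-Sox2 peak was found in 12, 11.2% (6.53 to 18.6%) against 22.5%. The comparisons share their libraries, so they are not independent of each other.

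Broken down by the exact set of lists, 20 regions were held by the Halo-Sox2 list only (18.7% against 24.3% of all regions), 6 by Halo-Sox2a only (5.61% against 12.2%) and 8 by the control only (7.48% against 10.2%). Both transgenic lists without the control held 7 (6.54% against 8.95%), Halo-Sox2a and control 6 (5.61% against 10.3%), and Halo-Sox2 and control 8 (7.48%, 3.84 to 14.1%, against 1.9%). The last set had median percentiles of 5.56 (Halo-Sox2) and 13.3 (Ctrl). Near other homeobox genes the same set made up 5.73%. It included regions beside the starts of Hoxc6, Hoxd11, Hoxd12 and Hoxa13. The 20 regions of the Halo-Sox2 list alone were low as well, with a median percentile of 6.08 against 38.7 for such regions genome-wide, and narrow, with a median width of 266 bp against 377 bp. The control-only regions were in Hoxb (6) and Hoxa (2), and Hoxc and Hoxd had 0.

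These counts turned under some cuts of low-scoring peaks and not under a milder one. When each list was cut to its 72638 highest peaks, the length of the control list, 44 of the 90 Halo-Sox2 Hox peaks dropped out (48.9%, against 18.3% of all Halo-Sox2 peaks and 26.2% of its peaks near other homeobox genes). Of the Halo-Sox2a Hox peaks 14 of 74 dropped out (18.9%, against 13.5% of all). No control peak dropped out. The median Halo-Sox2 Hox peak stood at percentile 18.5 of its list, so the size of the Halo-Sox2 loss restates that low position. With lists of equal size, 8 of 88 Hox regions had a Halo-Sox2 peak and no control peak (9.09% against 28.6% of all regions), and 37 had a control peak and no Halo-Sox2 peak (42% against 27.8%). For Halo-Sox2a the same counts were 8 (9.09% against 17.1%) and 26 (29.5% against 16.5%). Between the transgenic lists they were 7 in Halo-Sox2 alone of the pair (7.95% against 23.3%) and 18 in Halo-Sox2a (20.5% against 23.1%). With peaks above percentile 25 of each list alone, 9 of 63 Hox regions had a Halo-Sox2 peak and no control peak (14.3% against 33.3%), and 18 had a control peak and no Halo-Sox2 peak (28.6% against 20.7%). So with all peaks the Halo-Sox2 list had more Hox regions without a control peak than the reverse. With lists of equal size, or peaks above percentile 25, it had fewer. With scores at least 2 times the lowest the order did not turn, at 26 and 14 of 99 Hox regions (26.3% against 34.9%, and 14.1% against 19.6%). Without replicates neither order has an error. Regions held by all 3 lists of equal size were 36 of 88.

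**Figure D4:**
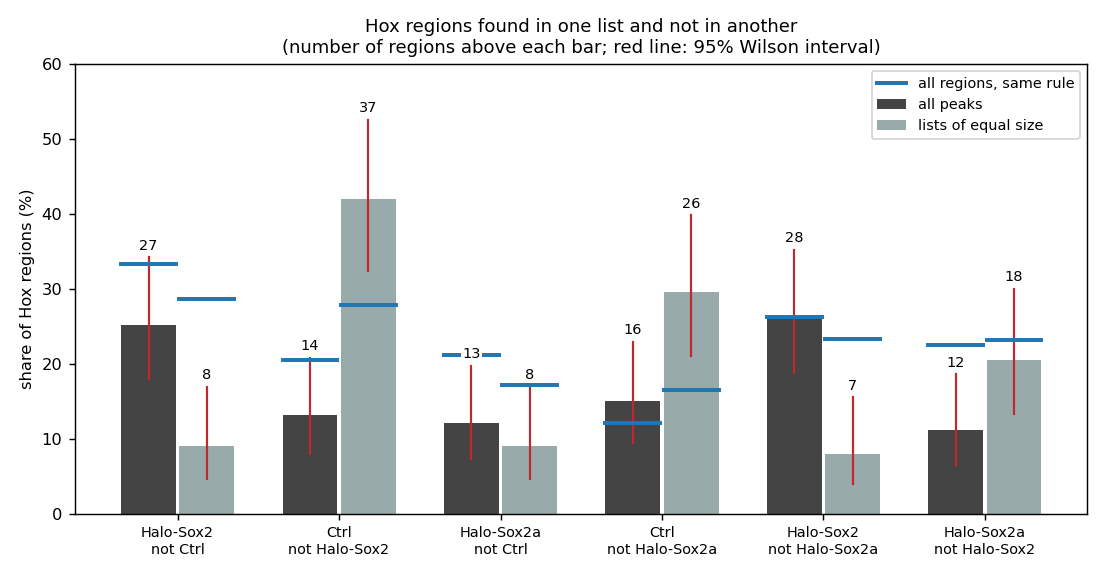
Share of Hox regions (%, bars from 0) with a peak in the first list named and none in the second, using all peaks (dark, 107 regions) or lists cut to equal size (light, 88 regions), with the number of regions above each bar, Wilson 95% intervals as red lines and the share of all regions by the same rule as blue lines. The dark bars for Halo-Sox2 not Ctrl and Ctrl not Halo-Sox2 stand at 27 and 14 regions, and the light bars turn that order to 8 and 37.

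At the 5′ ends the equal-size lists left a peak at 19 genes (Halo-Sox2), 25 (Halo-Sox2a) and 29 (Ctrl), and at 17 genes in all 3 lists. Hoxa5 and Hoxa11 then held a 5′ peak in the control list only. Hoxa3, Hoxa10, Hoxa13, Hoxc11 and Hoxc12 held one in the Halo-Sox2a and control lists. In Hoxa the genes with a 5′ peak in all 3 lists went from 7 to 2 of 10 (Hoxa4 and Hoxa7), in Hoxc from 8 to 6 of 9, and in Hoxb and Hoxd they stayed at 2 of 10 and 7 of 9. Hoxd12 held one in the control list only and Hoxd4 in none. Hoxa2, Hoxb1 and Hoxb13 were control only with either set of lists.

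The 5-kb limit of the rule cut between regions of mixed height. Just inside it lay a region 4854 bp from Hoxd3, at percentiles 18.7 (Halo-Sox2) and 3.32 (Ctrl), and a region 4702 bp from Hoxc12, at 49.3, 35.4 and 41.3. Just outside lay regions 5653 bp from Hoxa13, at 14.1 (Halo-Sox2) and 30.9 (Halo-Sox2a), and 5835 bp from Hoxd3, at 13.4 in the Halo-Sox2 list alone.

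Genes that work with or upstream of the Hox genes were looked up as well, by promoter peaks, which 61.8, 62.3 and 61.8% of the 17492 protein-coding genes in the promoter table had (Halo-Sox2, Halo-Sox2a and Ctrl). Of 9 genes for Hox cofactors of the Pbx, Meis and Pknox families, 8, 7 and 7 had a promoter peak, with median percentiles of 72.2, 87.6 and 79.8. Of 22 genes for upstream regulators (retinoic acid signalling, Cdx, Polycomb and Trithorax), 20 had one in each list, with medians of 59.7, 73.7 and 67.8. Of the 40 other homeobox genes, 34, 31 and 32 had one, with medians of 61.0, 65.7 and 64.7, and 30 had one in all 3 lists. Promoters of the pluripotency markers held a peak at 5, 6 and 6 of 8 genes. Those of neural markers held one at 4 of 4 in each list, of fibroblast markers at 4 of 4 in each, of primitive endoderm markers at 3 of 4 in each and of mesoderm markers at 3, 1 and 2 of 4. Median percentiles were 61.7, 62.1 and 67.3 (pluripotency), 69.7, 66.0 and 39.7 (neural) and 26.4, 50.8 and 54.0 (fibroblast). They were 56.1, 54.7 and 72.5 for primitive endoderm and 30.3, 8.82 and 45.8 for mesoderm. Promoter peaks alone thus did not set the labelled cell type apart from other types, and the part of other cells in these lists was not tested.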

How the data were processed

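ATAC-seq marks open DNA by letting the Tn5 transposase cut and tag it. Each library came from roughly 50000 cells and was read as 75-bp pairs, per the labels' protocols. The data used were the 3 deposited peak lists, 1 per library, whose score column is the authors' whole number per peak on an unstated scale. Per the submitters' processing notes the build was mm10 and the tools included STAR, SAMtools, MACS2 3.0.0a7, MACS3 and deepTools 3.3.0. Their roles, the peak threshold and any shift of read ends are not given in the sources used here.

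Peaks that overlapped by at least 1 bp were merged into regions, and a region was classed by the lists with a peak there. Percentiles were taken within a list. Gene bodies came from the RefSeq table of GRCm38.p6 (49997 genes, 21900 protein-coding), which names the same build as mm10, and all 38 genes were found in it. Starts came from the RefSeq promoter table (22 genes) or from body ends (16 genes). A region was assigned along a cluster to the gene whose 3′ end was last passed from the low-numbered end. Coordinates are 1-based.

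No test was possible with 1 library a group. Shares carry Wilson 95% intervals and stand beside the same share over all regions. The regions given in full are, in each cluster, the highest in each list, the widest, and any above percentile 75 that a compared list lacked, and 4 others were picked with their values in view. The members, the gene lists and the markers were chosen with earlier results of these data known. Alternatives were the window around gene bodies, score thresholds, lists of equal size, the overlap rule, a 500-bp merge and the definition of a promoter. The merging and counting were tested on simulated data. Python 3.11.15, pandas 2.3.3, numpy 2.4.6, statsmodels 0.14.6 and matplotlib 3.10.9 were used.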

Additional observations from a re-analysis of the deposited data

How the results depend on the processing

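Of 58 alternative counts, 41 stayed within 1.5 times the count reported and 17 did not, and none of the promoter counts moved further than that. Lists of equal size had the widest effect: regions in Halo-Sox2 and not in control numbered 8, in control and not in Halo-Sox2 37, in Halo-Sox2a and not in control 8, in control and not in Halo-Sox2a 26, and in Halo-Sox2 and not in Halo-Sox2a 7. At the score of the last peak kept, 2 Halo-Sox2 and 2 Halo-Sox2a Hox peaks were tied and were taken in order of position. Above percentile 25 of each list, Halo-Sox2 had 9 regions without a control peak and 9 without a Halo-Sox2a peak, while the control and Halo-Sox2a lists had 18 and 17 without a Halo-Sox2 peak, so that order turned there too, and all 3 lists shared 25. Inside gene bodies only, the counts were 17 (Halo-Sox2 not control), 8 (control not Halo-Sox2), 10 (control not Halo-Sox2a), 17 (Halo-Sox2 not Halo-Sox2a) and 7 (Halo-Sox2a not Halo-Sox2). With peaks up to 500 bp apart merged, the counts were 17 (Halo-Sox2 not control), 18 (Halo-Sox2 not Halo-Sox2a) and 8 (Halo-Sox2a not control). With scores at least 2 times the lowest, Halo-Sox2a had 7 without a Halo-Sox2 peak. The order of Halo-Sox2 and control did not turn there, at 26 regions (Halo-Sox2 not control) and 14 (control not Halo-Sox2). Except inside gene bodies, where fewer regions were counted, the cause was not tested. The 5′ ends within 1 kb were added as a measure after seeing the data. No paired analysis was possible because each group had 1 library and the labels give no replicate numbers. The depth of each library is unknown, so a missing peak may lie just under the threshold of its list.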

Other observations

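The clusters also hold microRNA genes, which were looked up after the Hox values were seen. miR-10a and miR-10b, which lie beside Hoxb4 and Hoxd4, share a seed (bases 2 to 8, in capitals), and so do miR-196a and miR-196b, which are known to act on Hox messages. Sequences are from RefSeq, 5′ to 3′.
miR-10a-5p: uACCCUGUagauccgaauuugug
miR-10b-5p: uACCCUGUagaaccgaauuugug
miR-196a-5p: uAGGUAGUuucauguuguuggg
miR-196b-5p: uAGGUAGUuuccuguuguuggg
The Mir196b hairpin, between Hoxa9 and Hoxa10, met a peak in all 3 lists, at percentiles 18.3 (Halo-Sox2), 25.3 (Halo-Sox2a) and 6.29 (control). The Halo-Sox2 peak ended at chr6:52230111 and did not reach the miR-196b-5p sequence (chr6:52230129-52230150), which the Halo-Sox2a and control peaks covered. For Mir615, in the Hoxc5 body, the table used gives the mature arms without the hairpin. The span of its arms met a Halo-Sox2 peak at percentile 26.2 and a Halo-Sox2a peak at 52.2, and the nearest control peak was 149 bp away. Mir10a lay 678, 1155 and 699 bp from the nearest peak, and Mir10b 1036, 891 and 1023 bp. Mir196a-1 and Mir196a-2 were more than 2 kb from a peak in every list.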
